A study of Mus musculus with 8 samples.

Results

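The miRNA content of exosomes from the amniotic fluid of cesarean control mice was described across the 4 single-colour Agilent mouse miRNA arrays of this group. A miRNA belonged to the set when the scanner software called it detected on all 4 arrays, so the members were chosen by the measured signal itself. Of 1881 mouse miRNAs on the array, 459 met this rule, 221 were detected on 1 to 3 arrays and 1201 on none. The share detected on all 4 was 24.4% of all miRNAs on the array, and every list below is read against that share.

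The series holds 8 arrays. The 4 cesarean controls are labelled as mouse exosomes from amniotic fluid obtained at cesarean section on day 17 of pregnancy; the labels give no strain and no genotype, and do not say whether these mice were injected. The other 4 arrays come from mice given lipopolysaccharide and are not used here. The labels do not say either whether the replicates are separate dams or pools of fluid, so the spread given here is that between 4 samples and may be partly technical.

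MicroRNAs are short RNAs that guide Argonaute proteins to partly complementary sites in messenger RNAs, and their pairing rests mainly on the seed, bases 2 to 8 from the 5′ end. Each is cut from a hairpin precursor whose 5p and 3p arms can both give a mature miRNA, and hairpins that lie close together in the genome are often transcribed as a unit. Exosomes are small vesicles of endosomal origin that carry some of these RNAs out of the cell. Amniotic fluid bathes the fetus and receives material from fetal skin, airway, gut and urine and from the amnion, so its vesicles come from several sources, and less miRNA per vesicle and fewer vesicles of a source cannot be told apart in these samples. A miRNA array measures none of the protein markers of exosomes, so the vesicle label was not checked.

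The mature sequences of 392 of the 459 members were matched by name to RefSeq (GRCm38.p6). Those that carry the main findings are shown first, 5′ to 3′, with the seed in capitals. The miR-200 family of epithelial cells has 2 seeds that differ at a single position, and all 5 of its guide arms were detected on every array:
miR-200a-3p: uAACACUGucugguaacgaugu
miR-141-3p: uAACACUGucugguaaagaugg
miR-200b-3p: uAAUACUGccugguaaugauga
miR-200c-3p: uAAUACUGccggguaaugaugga
miR-429-3p: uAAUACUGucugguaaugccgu
The let-7 family, an inhibitor of growth programmes that rises as tissues differentiate, is the largest seed family detected, and these 4 members show that it varies outside the seed:
let-7a-5p: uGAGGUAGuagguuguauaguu
let-7b-5p: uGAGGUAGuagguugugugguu
let-7d-5p: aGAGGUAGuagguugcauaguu
miR-98-5p: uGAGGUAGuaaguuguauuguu
The early-embryo cluster and the miR-17 family, which both favour proliferation, share the hexamer AAGUGC in seeds that are offset by a base:
miR-291a-3p: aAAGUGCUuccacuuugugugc
miR-294-3p: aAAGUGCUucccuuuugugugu
miR-295-3p: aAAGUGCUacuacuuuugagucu
miR-17-5p: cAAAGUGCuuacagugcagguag
miR-20a-5p: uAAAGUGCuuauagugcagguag
miR-106b-5p: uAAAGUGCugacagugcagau
Both arms of miR-9, a miRNA of the developing nervous system, are shown because they stood apart on a single array:
miR-9-5p: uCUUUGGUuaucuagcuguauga
miR-9-3p: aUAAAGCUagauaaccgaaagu
G-rich sequences and UG repeats are shown because detection differed with G content and UG repeats varied widely between arrays:
miR-705: gGUGGGAGguggggugggca
miR-2861: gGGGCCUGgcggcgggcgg
miR-6931-5p: uGGGGUGGggagugggggacu
miR-574-5p: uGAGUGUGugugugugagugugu
miR-1187: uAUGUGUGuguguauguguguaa
miR-3082-5p: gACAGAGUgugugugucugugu

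The 4 arrays were not equally bright. The scanner called 634, 618, 491 and 515 miRNAs on replicates 1 to 4, and the 75th percentile of the probe signal, taken over the 727 probes well above background on all 4 arrays, was 379, 272, 170 and 187 in the same order. The brighter the array, the more miRNAs were called on it. The mean log2 signal of the spike-in probes, which do not come from the exosomes, was 10.93, 10.96, 11.04 and 10.94, a range of far less than that of the miRNA signal, whose log2 75th percentile ran from 7.41 to 8.57. Replicate 1 alone detected 56 miRNAs and replicate 2 alone 32, while replicate 3 alone detected 2 and replicate 4 none. Replicate 3 was also the array most often missing where the other 3 had a call, for 44 of the 70 miRNAs detected on 3 arrays, and without it 503 rather than 459 miRNAs would have met the rule.

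**Figure D1:**
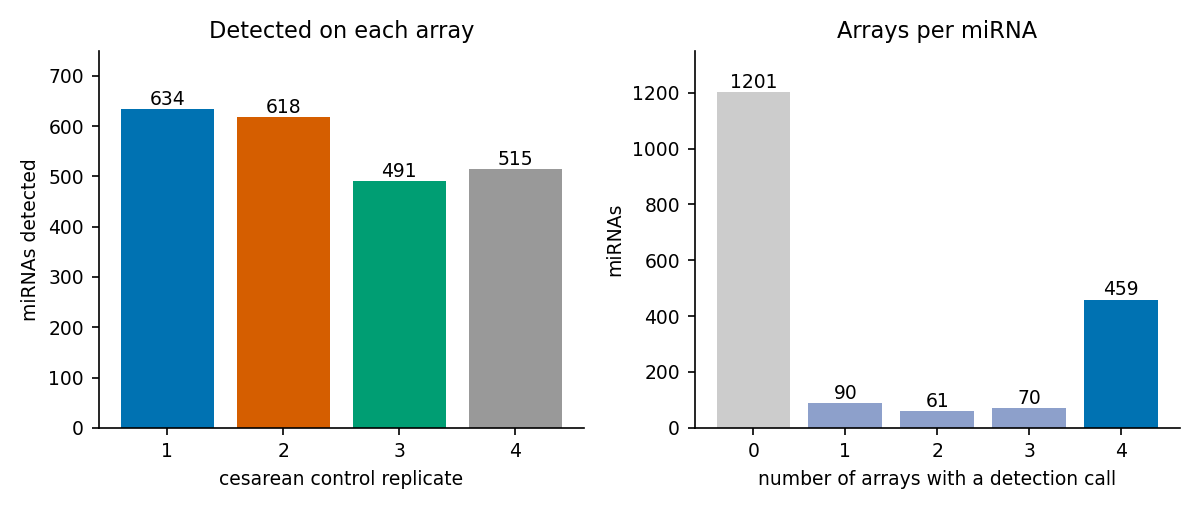
The left panel gives the number of miRNAs with a detection call on each cesarean control array, and the right panel the number of miRNAs by how many of the 4 arrays called them. The calls fall from 634 on replicate 1 to 491 on replicate 3, and most miRNAs were called either on all 4 arrays (459) or on none (1201).

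The call follows the ratio of a miRNA's total signal to its error. The lowest ratio among all calls was 3.05, and the highest among miRNAs not called was 1. Just inside the rule lay miR-9-5p, whose lowest ratio over the 4 arrays was 3.06, miR-7022-3p at 3.15 and miR-204-5p at 3.19. Just outside lay miR-291a-5p, miR-744-5p and miR-484, each called on 3 arrays with mean ratios of 12.9, 12.7 and 12.4 and each without a call on replicate 3. These 3 were clear of the limit on the arrays that called them. Levels below are log2 signals of the brightest probe of each miRNA after the arrays were scaled to the same 75th percentile, with a floor at 3.50. A value of 3.50 is thus a bound. Of the 459 members, 388 had this probe well above background on all 4 arrays, and 34 lay at the floor on at least 1 array. Levels of different miRNAs come from different probes and are not ranked against each other.

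Markers of surface epithelium and mesenchyme were complete. The 5 epithelial miRNAs of the miR-200 family, which hold cells in the epithelial state by repressing ZEB transcription factors, were each detected on 4 arrays. miR-200b-3p lay at 8.28, 8.69, 8.50 and 8.70 on replicates 1 to 4 (mean 8.54 ± 0.20, SD, n = 4). miR-200c-3p lay at 7.62, 8.11, 7.71 and 8.06 (7.87 ± 0.25) and miR-429-3p at 7.20, 7.45, 7.21 and 7.80 (7.41 ± 0.28). All 3 were higher on replicates 2 and 4 than on replicates 1 and 3. miR-200a-3p averaged 6.18 ± 0.41, and miR-141-3p averaged 4.57 ± 0.50 and was well above background on 3 arrays. The skin and squamous miRNAs were also detected 3 of 3 times. miR-203-3p, which restrains proliferation in the epidermis, lay at 6.26, 7.03, 6.94 and 7.01, with replicate 1 alone below the others. miR-205-5p lay at 6.58, 7.03, 5.70 and 6.58, and miR-31-5p at 5.70, 6.56, 4.82 and 5.74, both lowest on replicate 3.

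The smooth muscle and mesenchyme list had 5 of 5 members detected on all 4 arrays. The miR-199a and miR-214 hairpins lie in an antisense transcript of a dynamin gene and mark fibroblasts and developing skeleton. miR-199a-3p lay at 10.14, 11.01, 9.76 and 10.40, miR-199a-5p at 8.59, 9.45, 8.49 and 8.96, and miR-214-3p at 8.37, 9.73, 8.20 and 9.21. The 3 miRNAs ordered the arrays alike, with replicate 2 highest and replicate 3 lowest. miR-143-3p and miR-145a-5p, a cluster of contractile smooth muscle, ordered them otherwise, with replicate 4 lowest in both: miR-143-3p averaged 6.52 ± 0.49 and miR-145a-5p 4.46 ± 0.35.

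Blood and vessel miRNAs were represented by some of their markers. miR-451a, the Dicer-independent miRNA of red cells, lay at 13.11, 13.45, 13.16 and 13.96 (13.42 ± 0.39). miR-486a-5p, which is encoded in the ankyrin 1 gene, lay at 6.95, 7.67, 7.05 and 8.18. Both were highest on replicate 4. The other 3 erythroid sequences, both arms of miR-144 and miR-486a-3p, were detected on no array, although miR-144 is transcribed with miR-451a. Summed over the list, the erythroid level ranged from 13.13 to 13.99, nearly all of it from miR-451a, which alone ranged from 13.11 to 13.96. Of 7 leukocyte miRNAs, 4 were members: the myeloid miR-223-3p at 8.74, 9.16, 9.28 and 9.46, the lymphoid miR-342-3p at 7.60 ± 0.41, and the activation-linked miR-155-5p at 5.84 ± 0.21 and miR-146a-5p at 5.68 ± 0.32. miR-142a-3p, found across blood cells, was detected on 3 arrays at 4.04 ± 0.37 and lay at the floor on replicate 3, miR-150-5p was detected on 3 arrays, and miR-142a-5p on none. Endothelial miR-126a-3p lay at 8.53, 9.17, 8.07 and 7.92, while its partner arm miR-126a-5p was detected on 2 arrays.

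Among markers of inner organs, the kidney and gut miRNAs miR-192-5p at 6.41, 6.26, 6.58 and 6.92 and miR-194-5p at 4.46, 4.18, 3.84 and 5.02 were members, and miR-215-5p was detected on no array. miR-375-3p, an islet and gut endocrine miRNA, was a member at 3.50, 5.31, 4.37 and 5.02, at the floor on replicate 1. miR-7a-5p, of islets and pituitary, averaged 3.98 ± 0.37. The sensory cluster gave miR-183-5p at 6.15 ± 0.62 and miR-182-5p at 5.45 ± 0.44 as members, and miR-96-5p was detected on 3 arrays. No member came from the ciliated airway list (0 of 5) or from the X-linked testis list, in which 10 of 10 were detected on no array. In the ciliated list, miR-34b-5p, miR-34c-5p and miR-449a-5p were each detected on 1 array.

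The early-embryo cluster, miR-290 to miR-295, which is characteristic of pluripotent cells and of placenta, gave 6 members of 14. miR-294-3p lay at 7.56, 7.63, 7.32 and 7.46 (7.49 ± 0.14), miR-295-3p at 7.44, 7.51, 7.31 and 7.52 (7.45 ± 0.10) and miR-292a-3p at 7.02, 6.89, 6.84 and 7.02 (6.94 ± 0.09). These were among the steadiest levels between arrays. The median SD of the 6 members was 0.20, against 0.36 for the 388 members well above background. The other members were miR-290a-5p at 6.19 ± 0.36, miR-291a-3p at 5.90 ± 0.28 and miR-293-3p at 6.22 ± 0.26, so 5 of the 6 were 3p arms. The remaining 8 sequences were detected on no array in 4 cases and on 1 to 3 arrays in the other 4.

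In all, 40 of 81 marker miRNAs (49.4%) and 114 of 313 miRNAs of the family and locus lists (36.4%) were members, against 24.4% of the array. Of the 15 marker lists, 12 lay above that share and 3 had no member. These lists hold well-known miRNAs with low numbers, of which a larger share was detected in any case, as given below. Without replicate 3, the count over the marker lists became 44, and without any other array it stayed at 40. Leaving out an array can only keep or raise such a count.

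**Figure D2:**
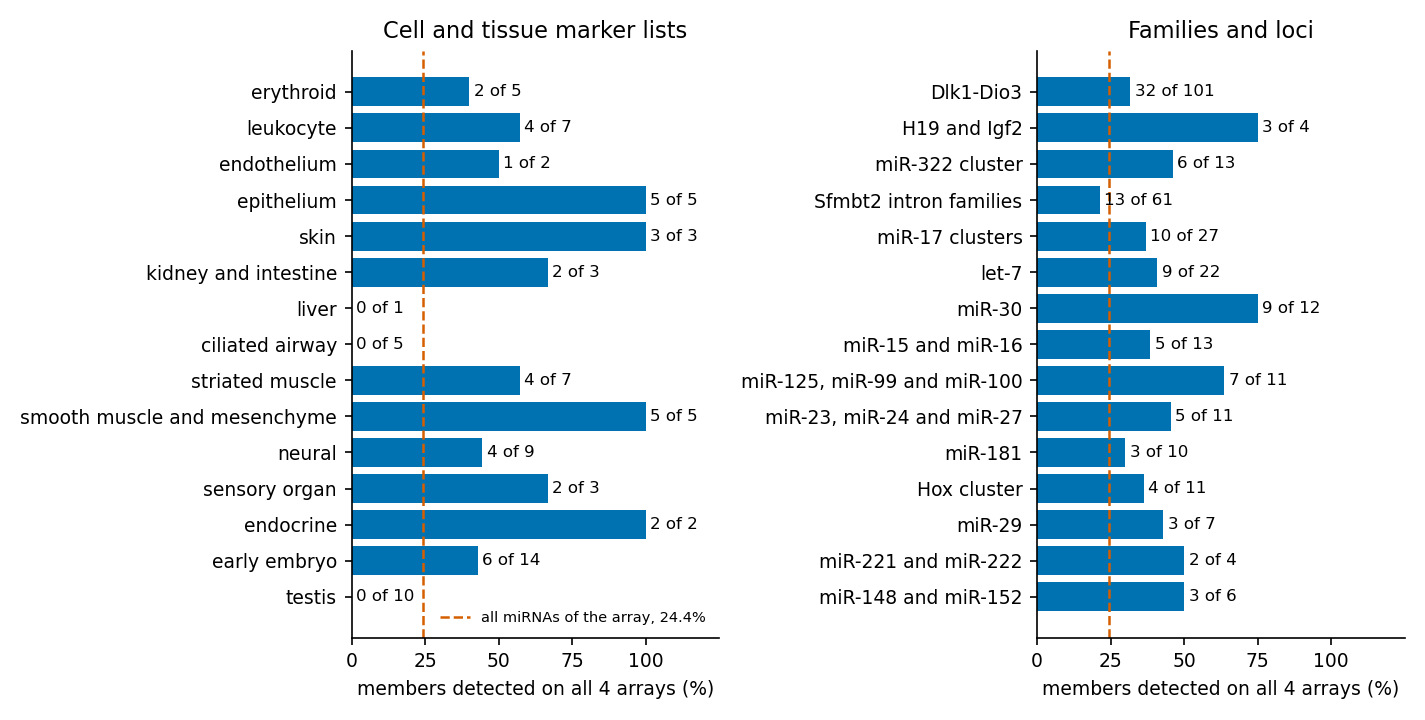
Bars give the share of each list's miRNAs that were detected on all 4 cesarean control arrays, with the counts beside them, for 15 marker lists (left) and 15 family and locus lists (right). The dashed line is the share over all 1881 miRNAs, 24.4%; epithelium, skin, smooth muscle and mesenchyme and endocrine reach 100%, and liver, ciliated airway and testis are at 0.

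Several muscle, liver and neural miRNAs stood apart on a single array. The striated muscle list had 4 members of 7. miR-1a-3p lay at 5.82, 7.24, 5.91 and 5.57, miR-133a-3p at 5.44, 7.28, 5.71 and 5.99, and miR-133b-3p at 6.54, 7.90, 6.89 and 7.05. Replicate 2 was the highest array for each of these 3, by a log2 difference of 1.34 from the next array for miR-1a-3p and 1.29 for miR-133a-3p. miR-206-3p, which is restricted to skeletal muscle, ran the other way, at 6.47, 6.28, 7.43 and 7.21, with its lowest value on replicate 2. Of the heart miRNAs, miR-208b-3p and miR-499-5p were each detected on replicate 2 alone, and miR-208a-3p on no array. All 3 lay at the floor on every array and were well above background on none. Summed over the list, the level was 9.36 on replicate 2 and between 8.30 and 8.77 on the others. Without replicate 2, miR-1a-3p averaged 5.77 ± 0.17 and miR-133a-3p 5.72 ± 0.28 (n = 3). With the scanner's total signal per miRNA in place of the brightest probe, replicate 2 was no longer the highest for miR-1a-3p, with a difference of -2.53 from the highest other array.

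miR-122-5p, the main miRNA of hepatocytes, was detected on 2 arrays, at 7.15 on replicate 2 and 5.01 on replicate 4, and lay at the floor on replicates 1 and 3. Replicate 2 exceeded replicate 4 by 2.14 on the log2 scale, 4.40-fold. The array with the highest summed muscle level was thus also that with the highest liver signal. This was not particular to muscle and liver. By the median deviation of members from their own means, replicate 2 was highest in 14 of 21 lists with at least 3 members. The part of muscle and liver miRNAs in the other levels of replicate 2 was not tested.

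The neural list had 4 members of 9, and replicate 1 stood apart. miR-9-3p lay at 9.98, 7.10, 6.55 and 6.84, 7.33-fold higher on replicate 1 than on the next array. miR-9-5p lay at 7.80, 4.26, 3.55 and 3.55. miR-124-3p, the most neuron-specific of the list, was detected on 2 arrays at 6.48 on replicate 1 and 3.66 on replicate 2, and was at the floor on the others. miR-137-3p reached 4.97 on replicate 1 and was at the floor elsewhere, and miR-219a-5p, of oligodendrocytes, lay at 5.52 and 4.26 on replicates 1 and 2. miR-128-3p at 5.36 ± 0.56 and miR-218-5p at 5.58, 5.97, 4.86 and 5.02 varied less. Of the other 2 sequences, miR-153-3p was detected on 1 array and miR-338-3p on none. Summed over the list, the level was 10.58 on replicate 1 and between 7.76 and 8.38 on the others. This sum follows the brightest probe, that of miR-9-3p, which alone lay at 9.98 on replicate 1.

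Without replicate 1, miR-9-3p averaged 6.83 ± 0.28 and miR-9-5p 3.79 ± 0.41 (n = 3), against 7.62 ± 1.59 and 4.79 ± 2.03 with it. The count of neural members was 4 with and without that array, although leaving out an array can only keep or raise a count. The direction held for miR-9-3p, miR-9-5p and miR-124-3p under each of 10 other ways of scaling and summarising the arrays, with the log2 difference from the next array between 2.52 and 3.38 for miR-9-3p, 1.66 and 4.05 for miR-9-5p, and 0.18 and 3.33 for miR-124-3p. Replicate 1 was also the brightest array and had the most miRNAs detected nowhere else, and the part of either in these values was not tested.

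**Figure D3:**
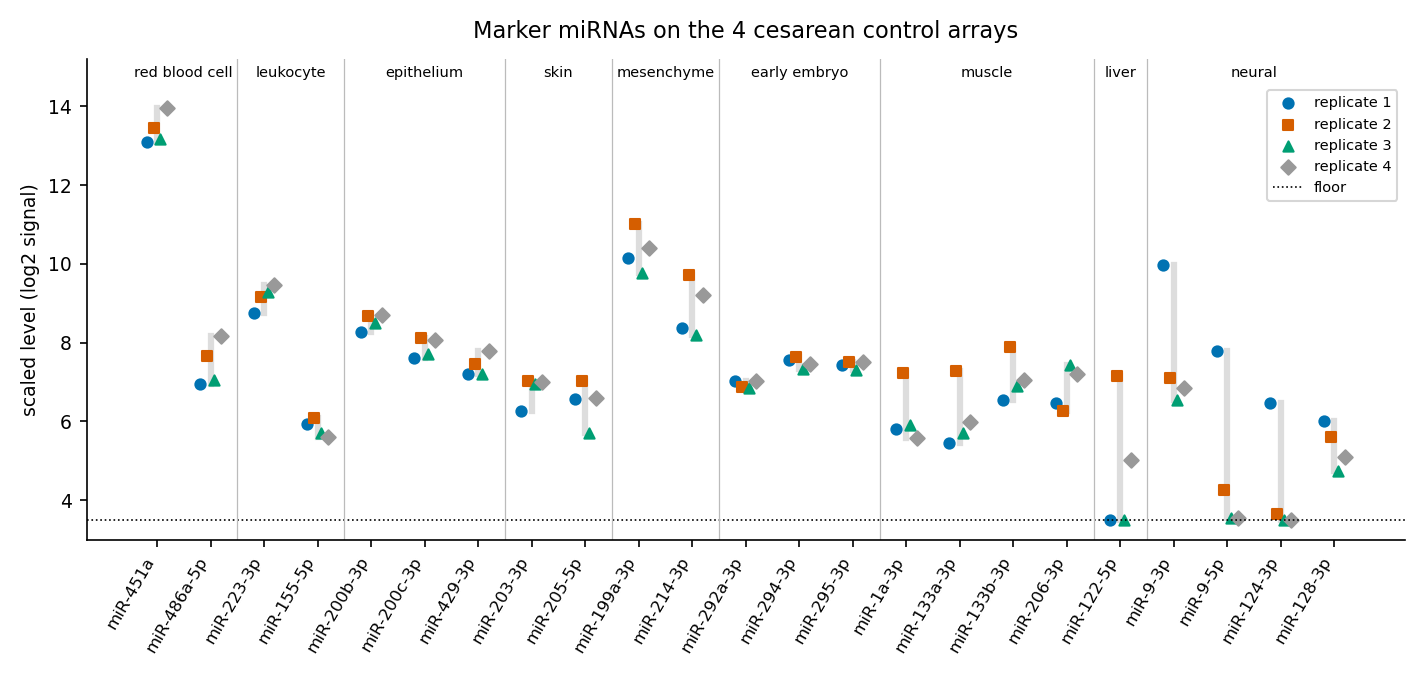
Scaled log2 signal of marker miRNAs on each of the 4 cesarean control arrays (symbols), grouped by the cells they mark; grey bars span the 4 values and the dotted line is the floor at 3.50. Values of the early-embryo miRNAs miR-292a-3p, miR-294-3p and miR-295-3p lie close together, whereas miR-9-3p, miR-9-5p and miR-124-3p stand apart on replicate 1 and miR-1a-3p, miR-133a-3p and miR-122-5p on replicate 2.

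Shared seeds described a small part of the set. The matched miRNAs of the array carry 1347 seeds, and 328 of these had at least 1 member. That share is close to the 24.4% of all miRNAs that were members. Of 19 seed families with 4 or more miRNAs on the array, 10 had at least 3 members, and 2 had none. Those 10 families held 42 of the 392 matched members. They were picked by their detected members, so their shares are not read as a result. The family with the seed GAGGUAG had 9 of 11, the 8 let-7 guide strands from let-7a-5p to let-7i-5p and miR-98-5p; let-7k was detected on 1 to 3 arrays and miR-1961 on none. The levels of this family were steady, with a median SD of 0.20: let-7a-5p lay at 9.96, 10.14, 9.90 and 9.82, let-7b-5p at 9.87, 10.61, 10.04 and 10.07, let-7c-5p at 10.82 ± 0.20 and let-7d-5p at 8.22 ± 0.17. Their passenger strands were absent from the set, since all 9 members of the 22 let-7 and miR-98 sequences were 5p arms.

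The miR-17 seed AAAGUGC had 5 members of 6, the miR-15 and miR-16 seed AGCAGCA had 6 of 10 and the miR-130 and miR-301 seed AGUGCAA 4 of 7. The early-embryo seed AAGUGCU had 3 of 5. The miR-302 miRNAs that share this seed, miR-302b-3p and miR-302d-3p, were not members. The miRNAs of these families detected on no array were miR-6383 for the miR-17 seed, miR-195b, miR-6342, miR-6353 and miR-6419 for the miR-15 and miR-16 seed, and miR-130c, miR-6341 and miR-6389 for the miR-130 and miR-301 seed. The seed GUGGGAG had 3 of 4, the G-rich miR-705, miR-6922-5p and miR-7008-5p, which are not an evolutionary family. miR-705 averaged 6.71 ± 0.24.

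Hairpins within 10 kb of each other on a chromosome and strand formed 72 clusters. Of 427 matched miRNAs in these clusters, 135 (31.6%) were members, against 257 of 1181 (21.8%) elsewhere. The clusters named below hold mostly miRNAs with numbers up to 1000, of which 29.7% were members. The part of the number in this difference was not tested. Among 54 clusters with at least 4 miRNAs on the array, 15 had at least 3 members and 10 had none. The imprinted Dlk1-Dio3 domain on chromosome 12, whose miRNAs are expressed from the maternal allele in embryo and placenta, was thus split into separate groups. The group at chr12:109563692-109595388 held 9 members of 26, that at chr12:109611500-109618336 held 3 of 6, and that at chr12:109709060-109747960 held 20 of 70. In the list of the domain, which was drawn up by name, 32 of 101 were members (31.7%), 17 were detected on 1 to 3 arrays and 52 on none. These members are not the same set as those of the groups. miR-3070-2-3p and miR-1188-5p are in the groups only, and miR-376c-3p and miR-487b-3p in the list only. miR-127-3p lay at 7.23, 7.28, 7.09 and 7.82, miR-134-5p at 6.14 ± 0.14, miR-154-5p at 6.29 ± 0.26 and miR-300-3p at 7.58 ± 0.41. The median SD of its 32 members was 0.31, and replicate 4 lay above the own mean of 27 of them. Without replicate 3 the count was 41.

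The miR-17 to miR-92a cluster at chr14:115043671-115044506 gave a member from each of its 6 hairpins, 6 of 11 miRNAs. miR-17-5p lay at 5.55, 6.24, 4.77 and 5.11, miR-18a-5p at 6.93, 7.27, 5.30 and 5.94, miR-19a-3p at 6.58, 7.12, 5.14 and 5.93, and miR-19b-3p at 10.10, 10.53, 8.60 and 9.59. Each was highest on replicate 2 and lowest on replicate 3. The same held for all 10 members of the miR-17 cluster and its paralogues with respect to their own means: 10 of 10 lay above on replicate 2 and 0 of 10 on replicate 3. The paralogous cluster miR-106b to miR-25 at chr5:138165321-138165818 had 3 of 6, and that on the X chromosome at chrX:52741693-52742567 had 3 of 10, of which 2 are also encoded on chromosome 14.

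Other clusters with several members were miR-99b, let-7e and miR-125a at chr17:17830194-17830879 (5 of 6), miR-30c-1 and miR-30e at chr4:120769534-120772697 (4 of 4), miR-23a, miR-27a and miR-24-2 at chr8:84208518-84208921 (3 of 6), and miR-200b, miR-200a and miR-429 at chr4:156053905-156055750 (3 of 6). The X-linked cluster miR-450b to miR-322 at chrX:53047997-53054349, linked to growth arrest and myogenic differentiation, gave 6 of 13. miR-322-5p lay at 8.07, 9.04, 8.45 and 9.09 and miR-503-5p at 6.64, 7.98, 6.99 and 7.86, whereas the other 4 members, with means between 3.69 (miR-450a-2-3p) and 4.36 (miR-542-5p), were close to the floor; by the stricter call that needs a probe well above background on all 4 arrays, 2 of the 13 remained. The miR-290 to miR-295 cluster lay at chr7:3218626-3220841 and had 5 of 13, since miR-292a-3p was not matched to RefSeq.

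From the growth-linked H19 and Igf2 locus, miR-675-3p lay at 8.74, 9.59, 9.64 and 9.93, miR-483-5p at 8.68, 8.23, 8.95 and 8.51 and miR-483-3p at 4.60, 5.98, 6.45 and 6.40, so that replicate 1 was lowest for miR-675-3p and miR-483-3p but not for miR-483-5p. The miRNAs embedded in the Hox clusters, which follow body position, gave 4 of 11: miR-10a-5p at 6.74, 7.79, 6.92 and 6.95, miR-10b-5p at 8.27, 9.03, 8.17 and 8.18, miR-196a-5p at 5.92 ± 0.29 and miR-196b-5p at 6.60 ± 0.40. The families in an intron of Sfmbt2, a gene imprinted in the placenta, were the only one of the 15 family and locus lists below the share of the array, with 13 of 61 (21.3%). Their copies differ by few bases, so signal may be shared among them. Their levels ran in different ways: miR-466h-3p lay at 6.45, 5.30, 5.50 and 4.79 and miR-467f at 6.38, 5.04, 5.39 and 4.42, both highest on replicate 1, whereas miR-467b-5p lay at 4.82, 5.39, 4.87 and 5.42.

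Broadly expressed families were represented chiefly by their guide strands. The miR-15 and miR-16 list, which restrains the cell cycle, had 5 of 13, and each of the 5 was a 5p arm: miR-16-5p lay at 10.27, 10.67, 9.84 and 10.63 and miR-15b-5p at 9.34, 9.55, 8.90 and 9.64. The miR-29 family, which represses collagen genes, had 3 of 7, each a 3p arm, and miR-29a-3p lay at 9.77, 10.55, 9.71 and 10.11. The list of miR-23, miR-24 and miR-27 had 5 of 11, again all 3p arms, with miR-23a-3p at 9.38, 9.94, 9.77 and 9.95 and miR-27a-3p at 8.30, 8.97, 7.84 and 8.72. The miR-148 and miR-152 list had 3 of 6 and the miR-181 list 3 of 10. The miR-30 family was an exception, with 9 of 12 and both arms of several hairpins: miR-30a-5p lay at 8.26, 8.47, 7.52 and 8.43 and miR-30a-3p at 4.63 ± 0.07. The list of miR-125, miR-99 and miR-100 also departed from this, with 7 of 11 and both arms of miR-99b and miR-125a. Their 3p arms averaged 5.48 ± 0.39 for miR-99b and 9.20 ± 0.42 for miR-125a. miR-125b-5p, abundant in many differentiated tissues, lay at 11.03, 10.87, 10.16 and 10.63, lowest on replicate 3.

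The arms of a hairpin were seldom detected together. Of 723 hairpins with both arms on the array, 24 had both as members, 172 had the 5p arm alone, 115 the 3p arm alone and 412 neither. The 5p arm was a member in 27.1% of these hairpins and the 3p arm in 19.2%. Where a single arm was a member, the other was detected on no array in 239 of 287 cases (83.3%). Over all miRNAs of the array, 63.8% were detected on no array, so much of that share is the general one. Among hairpins numbered up to 1000, the 3p arm alone was more frequent (85 against 68 hairpins), and 19 had both. Among those numbered above 1000, the 5p arm alone was found in 104 and the 3p arm alone in 30, and 5 had both. Names give the number in order of discovery, so the high numbers hold mostly miRNAs found by deep sequencing, many of them mirtrons cut from short introns.

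The hairpins with both arms included miR-9, miR-30a, miR-30e, miR-99b, miR-125a, miR-140, miR-199a and miR-324. The cartilage miRNA miR-140 lay at 5.55, 6.09, 5.42 and 6.05 for its 5p arm and at 6.93, 7.70, 6.44 and 7.82 for its 3p arm, with replicates 2 and 4 high in both. In miR-652 the arms ran against each other: the 5p arm lay at 9.57, 9.05, 9.66 and 9.29 and the 3p arm at 6.76, 7.41, 6.40 and 7.04. In miR-712, which comes from ribosomal RNA spacer sequence, the 3p arm was at 8.54, 6.49, 6.94 and 6.39 and the 5p arm at 5.77, 6.32, 6.47 and 6.66. Over the 14 hairpins whose probes were well above background for both arms, the deviations of the arms from their own means were compared across arrays. Their Pearson correlation was 0.10, between 0.01 and 0.30 when any 1 hairpin was left out. These values do not include miR-9, whose 5p arm was well above background on 2 arrays. Its arms moved together, with deviations of 3.01 (5p) and 2.36 (3p) on replicate 1. A correlation that includes miR-9 was not computed. In 3 of the 14, and in 5 of all 24 hairpins with both arms, the arms lay on the same side of their means on all 4 arrays. By contrast, the deviations of a pair of probes to the same miRNA correlated at 0.97 over 298 miRNAs. These probes share the array and most of their sequence, and both correlations are descriptions across miRNAs, which are not independent.

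Base composition separated the set from the undetected miRNAs, above all among the high numbers. Members had a median G content of 36.4%, against 31.8% for miRNAs detected on 1 to 3 arrays and 22.7% for those detected on none. Up to number 1000, 243 of 819 miRNAs were members (29.7%), with a median G content of 26.1% against 22.7% in those never detected. Above number 1000, 216 of 1062 were members (20.3%), and the medians were 45.5% and 23.8%. Of the miRNAs above number 1000 with a G content of at least 40%, 133 of 253 were members (52.6%); with less than 20% G, 10 of 273 were (3.66%). Up to number 1000 the same bands gave 32 of 63 (50.8%) and 59 of 217 (27.2%). The share was thus highest in the G-richest band of both, and the bands lay much farther apart in the high numbers, where 133 of 185 matched members had at least 40% G.

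**Figure D4:**
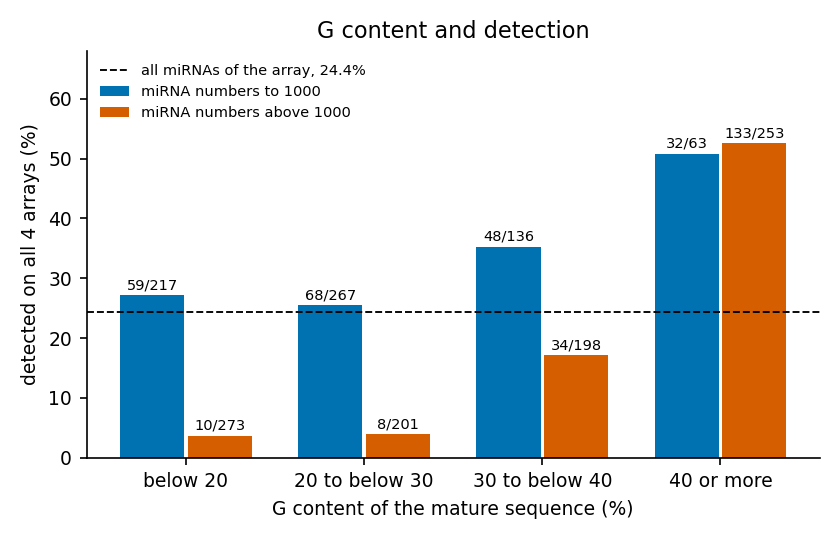
Bars give the share of miRNAs detected on all 4 arrays by the G content of the RefSeq mature sequence, for miRNA numbers up to 1000 and above 1000, with the counts above them; the dashed line is the share over the array, 24.4%. Among high numbers the share climbs from 3.66% below 20% G to 52.6% at 40% G or more, and among low numbers it is 27.2%, 25.5%, 35.3% and 50.8% over the 4 bands.

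Other sequence features separated the classes less. The median length was 22 bases in members and in undetected miRNAs. Up to number 1000, 46.4% of members began with U, the base that Argonaute favours at the 5′ end, against 28.6% of the undetected; above number 1000 the order was the reverse, with 37.3% against 46.4%. The miRNA lay within the span of a protein-coding gene for 65.1% of members and 69.8% of undetected miRNAs. Within the low numbers these shares were 48.8% and 46.0%, and within the high numbers 83.2% and 83.5%. Position within a gene hence followed the number and differed little with detection. The gene table gives no strand, so sense and antisense positions were not separated.

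The levels of the 4 arrays were compared pair by pair. Over the 388 members well above background, Pearson's correlation of the log2 levels ran from 0.92 between replicates 2 and 3 to 0.97 between replicates 3 and 4, and Spearman's from 0.89 to 0.96 for the same pairs, as a description across miRNAs that differ widely in probe brightness. The median SD of a miRNA over the 4 arrays was 0.36 on the log2 scale, with quartiles of 0.25 and 0.49. The median SD among the 15 spots of a probe on the same array was 0.07 to 0.10, and the resulting standard error of a probe mean was 0.02 to 0.03. Spot noise leaves out differences between samples, labelling and hybridization, which the spread between arrays holds. The latter was alike across brightness: in 4 classes of 97 miRNAs from the dimmest to the brightest, the median SD was 0.38, 0.36, 0.34 and 0.38. Of the 388, 122 (31.4%) spanned a log2 range of 1 or more.

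Among these 388 miRNAs, the steadiest were miR-6368, at 8.45, 8.47, 8.49 and 8.43 (SD 0.03), miR-6981-5p (SD 0.06), miR-7052-5p (0.06), miR-30a-3p (0.07), miR-7044-5p (0.07) and miR-202-3p (0.08). The widest of the 388 were miR-6391, at 6.80, 3.50, 7.09 and 6.47 (SD 1.67), miR-9-3p (1.59), miR-1187 (1.28), miR-6931-5p (1.22), miR-3082-5p and miR-877-5p (1.01). Of these, miR-6391 was at the floor on replicate 2, and miR-6931-5p and miR-877-5p were high on it.

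Replicates 1 and 2 held nearly all single-array departures. Among the 680 miRNAs detected on at least 1 array, a miRNA stood at least 1 log2 unit above all other arrays 10 times on replicate 1 and 15 times on replicate 2, and never on replicates 3 and 4. It stood as far below all others 7 times on replicate 1, 8 times on replicate 2, 2 times on replicate 3 and never on replicate 4. The high ones on replicate 1 were miR-9-5p, miR-9-3p, miR-124-3p, miR-449a-5p, miR-712-3p, miR-135b-5p, miR-137-3p, miR-344b-3p, miR-669p-3p and miR-219a-5p. On replicate 2 they included miR-1a-3p and miR-133a-3p of muscle, miR-122-5p of liver and the G-rich miR-3960, at 11.77, 13.27, 11.18 and 11.37, miR-2861, at 9.27, 11.69, 10.22 and 10.61, miR-6931-5p, at 8.08, 10.91, 8.70 and 9.08, and miR-3154, at 7.89 against at most 6.22 on the others. On replicate 3 the low ones were miR-30e-5p, at 6.01, 6.49, 4.75 and 6.16, and miR-331-3p.

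The lists moved with the arrays as well. Among 21 lists with at least 3 members, the median deviation of the members from their own means was highest on replicate 2 in 14 lists and lowest on replicate 3 in 16. Low-numbered miRNAs as a group moved likewise, though not each of them: over 176 of them without a UG repeat the median deviation was -0.08, 0.24, -0.26 and 0.09 on replicates 1 to 4, whereas over 117 high-numbered miRNAs with at least 40% G it was 0.06, -0.10, 0.17 and -0.12. The median of replicate 3 was thus low in the former and high in the latter. Of the 176, 22 were higher on both of replicates 3 and 4 than on both of replicates 1 and 2, and 47 were lower. Of the 117, 18 were higher in this way and 9 lower. Scaling by a common percentile sets the zero between these groups, so only their difference is independent of it.

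miRNAs made of UG repeats formed a further group, which was noticed in the list of widest spreads. The run UGUGUGUG, searched on the mature strand, occurred in 7 of 1608 matched miRNAs (0.44%), of which 5 were members, 1 was detected on 1 to 3 arrays and 1 on none. miR-574-5p lay at 9.19, 9.74, 10.91 and 10.78, miR-1187 at 6.52, 7.84, 9.21 and 9.18, and miR-3082-5p at 7.59, 8.68, 9.91 and 9.83. miR-669n, of the Sfmbt2 families, lay at 5.53, 6.63, 6.78 and 7.16. All 4 were higher on both of replicates 3 and 4 than on both of replicates 1 and 2, the dim arrays against the bright ones, as held for 63 of the 388 members. Without scaling, miR-1187 still ranged from 7.18 on replicate 1 to 8.82 on replicate 4, while miR-574-5p ranged from 9.86 to 10.42 and the order was not kept for miR-669n. miR-466i-5p, which was not matched to RefSeq, moved in the same order at 10.26, 10.65, 11.97 and 11.71. The last member, miR-672-5p, did not share this order: it lay near the floor at 3.71, 3.95, 3.67 and 4.18, lowest on replicate 3, and was well above background on 3 arrays.

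**Figure D5:**
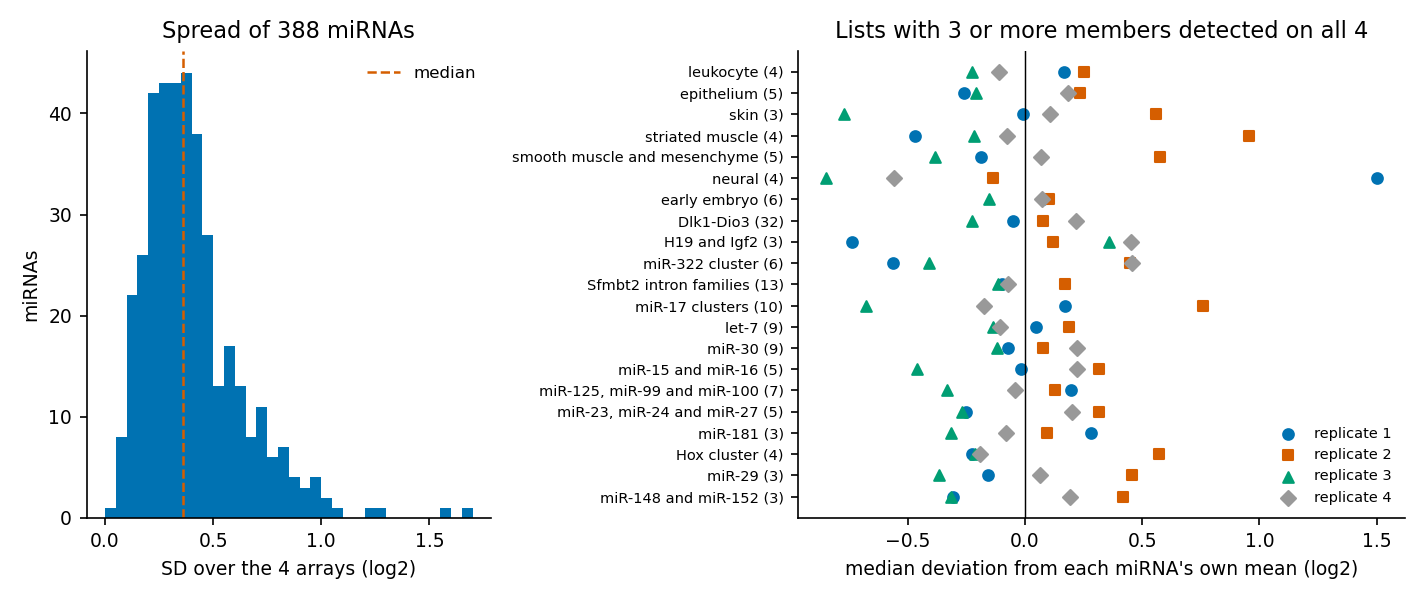
The left panel is a histogram of the SD over the 4 arrays for the 388 members whose brightest probe was well above background on all of them, with the median at 0.36. The right panel covers each list with at least 3 members (number in brackets). It gives the median deviation of the members from their own means on each array. The neural list, whose 4 members include both arms of miR-9, stands out on replicate 1, and replicate 2 is highest in 14 of 21 lists.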

How the data were processed

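Exosomes were isolated from amniotic fluid by size exclusion, with fractions 7 to 9 kept, per the labels' protocols. The deposited scanner files hold spot intensity values, background-subtracted and not normalized between arrays, read with Agilent Feature Extraction 10.7.1.1 per the file headers (9.1 per the submitters' processing notes). The labels describe Cy3 labelling of cRNA from 0.5 µg of RNA, a step for mRNA, so how miRNAs were labelled is unknown here. The authors also deposited a table on the log2 scale, already normalized between arrays by an unstated method, with column medians of 2.13 to 2.14; its centring is unknown too. Over 388 miRNAs its columns correlated with the array of the same sample at 0.959 to 0.968, above every other array. It served as an alternative.

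Of 58594 spots per array, 2164 were controls and were left out, as were spots with outlier marks (3.04% to 3.48% of miRNA spots). No spot was saturated. Detection is the scanner's call per miRNA. Each of 4415 probes was averaged over its spots. A probe counted as well above background where a share of at least 0.5 of its spots did. Arrays were scaled to their 75th percentile over 727 probes, dim values were raised to a floor of 11.3 (3.50 on the log2 scale), and the brightest probe stood for a miRNA. No test of a difference was run, since the rule uses these values; Dixon's limit served only to point out single arrays. The number of arrays limits the precision. Of 30 lists, 15 hold markers and 15 families or loci; list members, the 6 steadiest and 6 widest miRNAs, and those nearest the detection limit were named by rule, and the miRNAs standing apart and the UG repeats after their values were seen. The members and lists were chosen with earlier results of these data known. Sequences and positions are from RefSeq (GRCm38.p6), matched by name for 1608 of 1881 miRNAs. The scaling was tested on simulated data. Alternatives covered the detection call, scaling, background correction (limma 3.58.1 in R 4.3.3, normexp with an offset of 50), summary, floor and each array left out. Tables were made with Python 3.11.15, numpy 2.4.6, pandas 2.3.3 and matplotlib 3.10.9.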

Additional observations from a re-analysis of the deposited data

Results flagged for a closer look

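Among 116 named miRNAs and array measures examined, 14 had 1 array whose distance from the nearest other exceeded Dixon's 95% critical value for 4 samples; chance gives about 1 in 20 in groups not picked by their values. Part of the miRNAs examined were picked because an array stood apart, and where 3 arrays share the floor the limit is passed by any value above it, so the number is not read against chance. Replicate 1 stood apart upwards for miR-9-3p (9.98, the others between 6.55 and 7.10), miR-9-5p (7.80, the others between 3.55 and 4.26), miR-124-3p (6.48), miR-135b-5p (5.25), miR-137-3p (4.97) and miR-449a-5p (5.13), the last 2 with all other arrays at the floor, and for miR-6922-5p (4.31). It stood apart downwards for miR-203-3p (6.26, the others between 6.94 and 7.03). Replicate 2 stood apart upwards for miR-10b-5p (9.03, the others between 8.17 and 8.27), miR-3154 (7.89, the others at most 6.22), miR-126a-5p (3.90) and miR-294-5p (4.75), the last 2 with all other arrays at the floor. Replicate 3 stood apart upwards for miR-202-3p (5.83, the others between 5.65 and 5.67), a miRNA with a very small range, and downwards for miR-142a-3p, at the floor of 3.50 against 4.16 to 4.27. No miRNA stood apart on replicate 4, and neither the number of detected miRNAs, the 75th percentile nor the spike-in signal had an array beyond the limit.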

How the results depend on the processing

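No paired analysis was possible because a single group is described and nothing is compared between groups. The count of 459 became 388 with the call by probes well above background, and the 388 were all among the 459. It became 529 with at least 3 arrays and 461 to 503 with an array left out. Both of these settings can only keep or raise the count. The signal above 3 times its error gave the same 459, but the call follows that ratio, so this setting could not change the count. The call by probes lowered 4 lists by more than 1.5 times, kidney and intestine to 1, endocrine to 1, the miR-322 cluster to 2 and miR-221 and miR-222 to 1. The median SD of 0.36 became 0.64 without scaling and 0.67 with spike-in scaling, since the arrays' overall brightness then enters; other settings gave 0.24 (normexp) to 0.40 (total signal), and 0.30 to 0.39 with an array left out.

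Of 966 values of single levels under alternatives, 264 moved by more than their SD, most often with total signal, normexp and the value table, whose scales differ. The gap of the array standing apart, an alternative chosen after seeing the data, was recomputed for all but miR-135b-5p, miR-344b-3p and miR-3535, and kept its direction except as follows; the cause was not tested. With total signal per miRNA it became -3.22 for miR-712-3p, -1.55 for miR-669p-3p, -2.53 for miR-1a-3p and -1.05 for miR-6907-5p (replicate 2 or 1 no longer highest), and 0.26 for miR-718, 0.0133 for miR-6978-5p, 2.10 for miR-882, 3.43 for miR-8105 and 0.999 for miR-331-3p (no longer lowest). With normexp it became -0.0561 for miR-449a-5p, -0.124 for miR-137-3p and -0.0327 for miR-669p-3p, and no gap was left for miR-6938-5p, miR-882 and miR-8105. With spike-in scaling it became 0.0780 for miR-146b-5p, 0.0215 for miR-669n and 0.182 for miR-6988-5p, which was 0.0644 without scaling. Dim miRNAs near the floor carry only bounds.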
